A study of Vitis vinifera and Vitis riparia and Vitis amurensis with 189 samples.

Results

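The genes described here had higher mean levels in grapevine buds after 1 day at room temperature than in dormant buds at day 0, in 4 genotypes. Averaged over the genotypes, they were back near or below their starting level when collection ended. They were chosen by a rule on measured values, which kept 200 of the 42394 genes counted. For each gene, log2(CPM + 1), with CPM a library's gene counts scaled to a sum of 1000000, was averaged per genotype and day. A gene had to average at least 2 on this scale over all libraries, to stand at least 0.7 above day 0 at day 1 in all 4 genotypes, and to have a mean change of at most 0.3 from day 0 to the last day. Of 1787 genes that averaged at least 2 and rose this far at day 1, 279 also met the limit at the end, and the 200 with the largest smallest rise were kept. The remaining 1508 stayed above that limit at the end.

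The study followed the buds of 2 wild and 2 cultivated grapevines in 189 RNA-seq libraries, of which 32 were from Vitis amurensis PI588635, 47 from Vitis riparia PI588275, 58 from Vitis vinifera Cabernet Sauvignon and 52 from Vitis vinifera Riesling. Each wild species was represented by a pair of clonal vines from a cold hardy germplasm repository, and the cultivars came from a commercial vineyard, so a genotype stands for 1 clone or cultivar at 1 site. Dormant canes were cut to single nodes and stood in cups of water at room temperature. Whole buds were frozen on successive days until budburst was seen, and the last day was 10 in V. amurensis and 12 in V. riparia, and 17 in Cabernet Sauvignon and 15 in Riesling. Day 0 buds went straight from the cane into liquid nitrogen, and no buds kept cold over the same days are among these samples, so time at room temperature, time in water and time since cutting cannot be told apart.

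Grapevine buds survive winter in a dormant state with acquired freezing tolerance. Once their chilling requirement is met, warmth makes them lose that tolerance, a process called deacclimation, and resume growth up to budbreak. Wild species from cold regions, such as V. amurensis and V. riparia, are known for fast deacclimation and early budbreak compared with most V. vinifera cultivars.

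The libraries held 168521 to 21262793 gene counts, with a median of 5021120, and 14 held fewer than 1000000. In 12 pairs of replicate libraries the counts differed by less than the other replicate pairs did. The biological coefficient of variation within these pairs was at most 0.0813, against at least 0.111 in the other pairs. Each such pair was counted as 1 sample in the tests, which left 177 samples and usually 3 per genotype and day. The labels do not say which vine a replicate came from. With a pair of clonal vines per wild species, the samples of a wild genotype and day cannot all be from separate vines. For the cultivars this is not known, so p-values measure only the spread between these samples. All 21 cultivar libraries of days 5, 8 and 11 carried the transcripts that on other days marked the other cultivar, and they are called here by their labels. Of the 89 other cultivar libraries, 3 had under 90% of their own marker counts, and none of those was from days 0, 1, 2, 3 or 9. The markers, 4 of Cabernet Sauvignon and 8 of Riesling, were picked on days 0, 1 and the last day. The result on those days was therefore set by the choice. The identifiers have the Vitvi form and none of them was paired with a gene name, so the genes are described by their values, and no cell type marker could be checked. In whole buds, fewer cells of a type and less RNA per cell cannot be told apart.

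The smallest of a gene's 4 day 1 rises, which ranked the genes, was 3.24 for the first, 1.05 for the median and 0.81 for the last of the 200. The first gene left out had 0.8086, against 0.8097 for the last one kept. The mean change at the end among the members ran down to -4.18 and up to 0.2951, and the nearest gene beyond the limit had 0.303. In 65 members the mean end level was still above day 0. The members' mean log2(CPM + 1) ran from 2.06 to 10.05, with a median of 4.54, against 4.65 over the 15893 genes that averaged at least 2. At day 0 the mean was under 1 CPM for 8 members in V. amurensis, 3 in V. riparia, 2 in Riesling and 0 in Cabernet Sauvignon. The rule's list depended on scaling. CPM were computed from the total of gene counts, and on that scale the median over all expressed genes was itself 0.33, 0.29, 0.29 and 0.26 higher at day 1 than at day 0 in V. amurensis, V. riparia, Cabernet Sauvignon and Riesling. With CPM scaled by the trimmed mean of M-values (TMM), which removes such shifts, 125 of the 200 met the rule.

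The levels below are TMM-scaled. The day 1 rise had a median over the members of 1.19 in V. amurensis and 0.99 in V. riparia, and 1.26 in Cabernet Sauvignon and 1.12 in Riesling, against 0.10, 0.04, 0.00 and 0.01 over all expressed genes. The day 1 contrasts were used by the rule and are given as a description. In the fits of edgeR's quasi-likelihood test with Benjamini-Hochberg adjusted p under 0.05, the rise was called for 125, 88, 138 and 122 of the 200, and for 15.6%, 9.41%, 13.4% and 10.1% of all genes tested in V. amurensis, V. riparia, Cabernet Sauvignon and Riesling. In V. riparia that count was 54 without replicate 2 of day 1 and 134 with near-identical libraries kept apart. At the last day against day 0, 81, 60, 93 and 112 members were called lower, against 29.3%, 27.4%, 26.9% and 27.9% of all genes. The rule also selected on this contrast, so these counts are a description too. In V. riparia that count was 39 without replicate 2 and 37 without replicate 3 of day 12. The final level was below day 0 for 125, 134, 167 and 178 members, and 69 were below it in all 4 genotypes. A final level at least 1 log2 unit above day 0 was found for 21 members in V. amurensis and 10 in V. riparia, and 1 in Cabernet Sauvignon and 0 in Riesling.

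**Figure D1:**
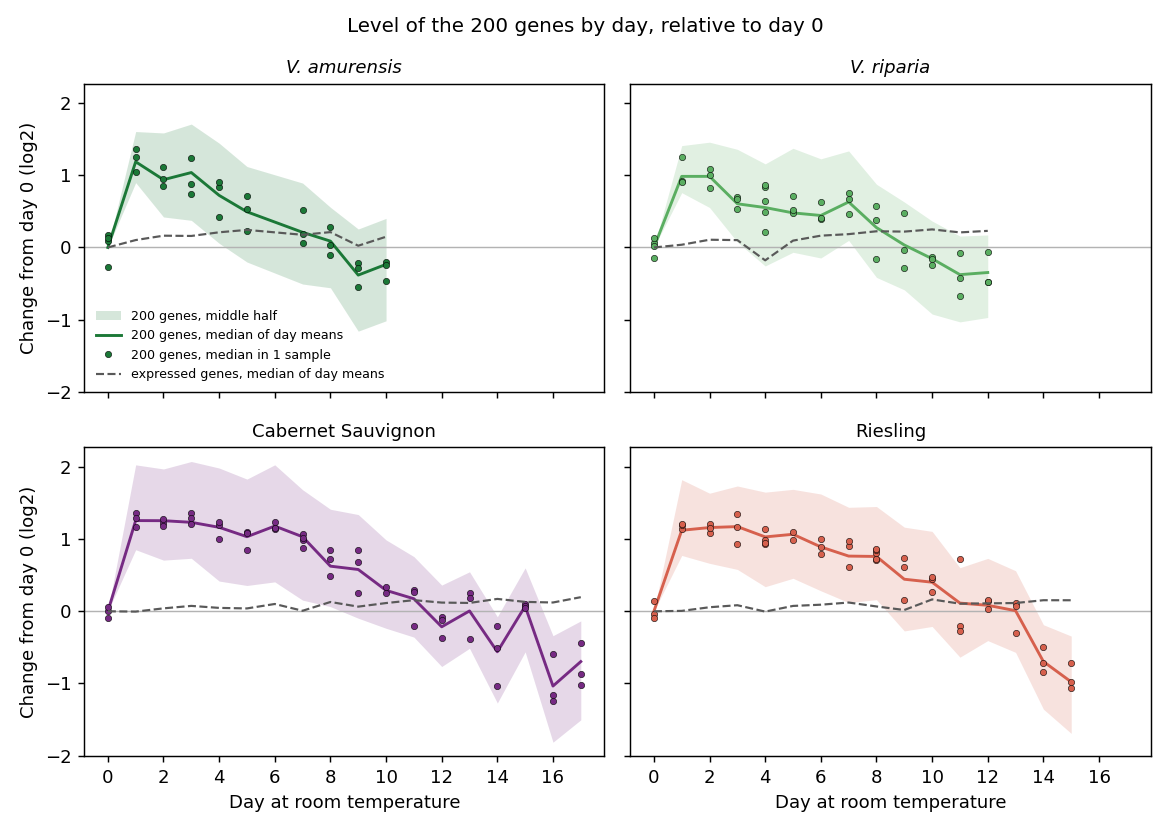
Median over the 200 genes of the change in log2(CPM + 1) from day 0 (vertical axis) by day at room temperature (horizontal axis), 1 panel per genotype, TMM-scaled. Coloured points are libraries or near-identical pairs with their CPM averaged. The line is the median of the day means, the shaded band the quartiles over the genes, and the grey line all expressed genes. In V. amurensis the line bridges day 6. The median was 0.94 in V. amurensis and 1.26 in Cabernet Sauvignon on day 2, and -0.38 and 0.58 on day 9.

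The working name of these genes, a transient day 1 pulse, goes against their time courses. The members' median stayed well above day 0 on days 2 and 3 in all 4 genotypes and returned to it over the following days. In V. amurensis the members' median change from day 0 was 1.19, 0.94, 1.04, 0.72, 0.49, 0.21, 0.09, -0.38 and -0.23 on days 1, 2, 3, 4, 5, 7, 8, 9 and 10. In V. riparia the median was 0.99 on days 1 and 2, 0.61 on day 3, 0.48 on day 5, 0.63 on day 7, 0.28 on day 8 and 0.03 on day 9, and it was -0.35 on day 12. The V. amurensis median was lower on day 2 than on day 1, and its day 3 libraries had 0.88, 1.23 and 0.74, against 1.36, 1.05 and 1.26 on day 1. V. riparia had a lower median from day 3 on, with an uneven course.

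The cultivars held the level longer. In Cabernet Sauvignon the median was 1.26 on days 1 and 2, 1.23 on day 3, 1.16 on day 4, 1.18 on day 6, 1.03 on day 7, 0.58 on day 9 and -0.22 on day 12. In Riesling it was 1.12, 1.16, 1.17 and 1.03 on days 1, 2, 3 and 4, 0.77 on day 7, 0.44 on day 9 and 0.08 on day 12. The last 2 collection days had the lowest medians of the Riesling course, -0.70 on day 14 and -0.98 on day 15. Cabernet Sauvignon alternated at the end, with -0.56, 0.07, -1.04 and -0.70 on days 14, 15, 16 and 17.

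Single genes followed varied courses inside that median. The highest mean fell on day 1 in 103 members in V. amurensis and 95 in V. riparia, and 88 in Cabernet Sauvignon and 75 in Riesling. It fell on day 1 in all 4 genotypes in 33 of the 200. A peak on days 4 to 7 was seen in 24 members in V. amurensis and 62 in V. riparia, and 66 in Cabernet Sauvignon and 87 in Riesling. With days 5, 8 and 11 left out of the cultivars, the peak fell on day 1 in 88 members in Cabernet Sauvignon and 85 in Riesling. On day 2, 58, 86, 83 and 81 members stood above their own day 1 level in V. amurensis, V. riparia, Cabernet Sauvignon and Riesling. Because the rule selected on day 1, a peak there is no independent feature of these genes.

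**Figure D2:**
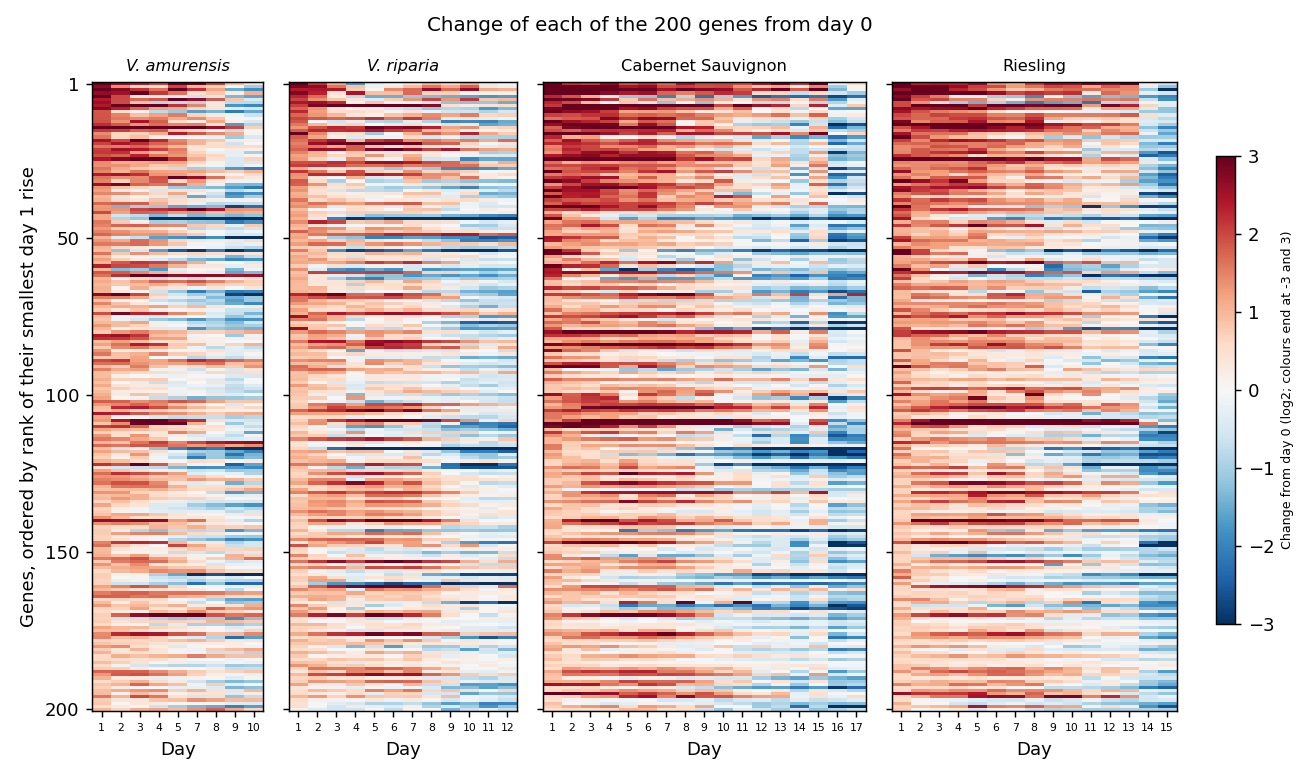
Change in mean log2(CPM + 1) from day 0 (colour, log2 units ending at -3 and 3, TMM-scaled) for each of the 200 genes (rows) on each day at room temperature (columns), 1 panel per genotype. Red blocks extend past day 1 in all 4 panels, reach further along the time axis in the cultivars, and give way to blue at the end; the highest mean fell on day 1 in 103 genes in V. amurensis and 75 in Riesling.

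The change between days 2 and 3, which the rule did not use apart from the mean over all libraries, held no fall that passed the test. In edgeR's quasi-likelihood test with Benjamini-Hochberg adjusted p under 0.05, 0 members were lower at day 3 than at day 2 in each of the 4 genotypes. Over all genes tested, 0.00478% were called lower in V. amurensis and 0% in V. riparia, and 0.00466% in Cabernet Sauvignon and 0% in Riesling, so that few changes of any kind were detectable between these days. At an unadjusted p under 0.05, 14, 25, 3 and 5 members were lower and 6, 0, 2 and 2 were higher in V. amurensis, V. riparia, Cabernet Sauvignon and Riesling. The lower ones were 7%, 12.5%, 1.5% and 2.5% of the members, against 0.874%, 1.77%, 1.01% and 1.28% of all genes tested. Over all genes tested, 900, 288, 553 and 342 were higher. Members were chosen to be high at day 1 and low at the end, so a fall here is partly set by the choice. DESeq2 called 2 members lower in V. amurensis and 0 in each of the other genotypes. Without replicate 2 of day 3, edgeR called 1 member lower in V. amurensis. The median log2 fold change of the members at day 3 against day 2 was -0.04 in V. amurensis and -0.24 in V. riparia, and 0.03 in Cabernet Sauvignon and 0.03 in Riesling.

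By day 9 many members were lower than at day 2, in larger number in V. amurensis and V. riparia than in the cultivars. Day 9 is the latest day that had 3 libraries in every genotype and was no genotype's last day. In V. amurensis 141 of the 200 were lower at day 9 than at day 2 and 1 was higher, with a median log2 fold change of -1.54. In V. riparia 85 were lower and 0 higher, with a median of -1.01. In Cabernet Sauvignon 60 were lower and 4 higher, with a median of -0.81. In Riesling 40 were lower and 3 higher, with a median of -0.66. These are calls of the quasi-likelihood test with Benjamini-Hochberg adjusted p under 0.05, and over all genes tested the medians lay between -0.01 and 0.07.

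The share of all genes called lower in the same contrast was 20.4%, 10.5%, 7.88% and 6.16% in V. amurensis, V. riparia, Cabernet Sauvignon and Riesling, and the share called higher was 23%, 15.3%, 10% and 8.59%. Of the members, 70.5%, 42.5%, 30% and 20% were called lower. The genotypes thus had the same order over all genes as over the members, so that order is not particular to the members. Days 2 and 9 did not enter the rule's differences, but they stand beside days that did, and a gene chosen to be high at day 1 and low at the end was likely to fall in between. The direction is therefore partly set by the choice, and the counts describe how many members had a called fall by day 9. Among the 1508 genes that rose at day 1 and ended above the limit, 247, 43, 78 and 56 were lower and 353, 277, 172 and 136 higher. A negative fold change, called or not, was found in 184, 189, 169 and 165 members. Over all genes tested the fold change was negative for 10510 of 20932, 9843 of 20368, 9840 of 21459 and 9751 of 21194. It was negative in all 4 genotypes for 142 members and for 24.1% of the 18905 genes tested in all 4.

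The counts rested on 3 samples a day and moved with single libraries. In V. riparia the count of 85 was 52 without replicate 1 of day 2, 56 without replicate 2 of day 2, 52 without replicate 2 of day 9 and 37 without replicate 3 of day 9. In Cabernet Sauvignon the count of 60 was 32 without replicate 3 of day 2 and 29 without replicate 3 of day 9. In Riesling the count of 40 was 24 without replicate 1 of day 2 and 20 without replicate 3 of day 9. In V. amurensis, leaving out 1 library gave 110 to 142. A fit of days 2 and 9 alone gave 33 in Cabernet Sauvignon and 17 in Riesling.

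The libraries themselves were uneven at day 9. The median change of the members from day 0 was -0.54, -0.22 and -0.29 in the 3 V. amurensis libraries at day 9, against 1.11, 0.95 and 0.85 at day 2. It was 0.48, -0.04 and -0.28 in V. riparia at day 9, against 1.002, 1.09 and 0.83 at day 2. In both wild genotypes the days did not overlap. Cabernet Sauvignon libraries had 0.84, 0.68 and 0.25 at day 9, against 1.22, 1.19 and 1.27 at day 2. Riesling libraries had 0.74, 0.61 and 0.16 at day 9, against 1.21, 1.08 and 1.15 at day 2. The cultivars' days did not overlap either. Replicate 3 was the deepest day 9 library and had the lowest median in V. riparia, Cabernet Sauvignon and Riesling, with 10035608 and 6411698 gene counts in the cultivars. Replicate 2 of day 9 had 29.8% to 38.3% of its records outside annotated genes in the 4 genotypes, against at most 14.6% in the other day 9 libraries. With that share as a covariate the counts of members lower at day 9 were 134, 83, 58 and 44 in V. amurensis, V. riparia, Cabernet Sauvignon and Riesling, and with libraries under 1000000 gene counts left out they were 142, 87, 56 and 43.

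Set together, some members were called lower at day 9 in all 4 genotypes and most in fewer. Of the 200 members, 16 were lower at day 9 than at day 2 in all 4 genotypes, or 8% of the members, against 1.8% of the 18905 genes tested in all 4. Without replicate 3 of Riesling day 9 the count was 9. Another 29 members were lower in 3 genotypes, 50 in 2 and 75 in 1, and 30 were lower in none. As shares of the members these were 14.5%, 25%, 37.5% and 15%, against 2.81%, 6.49%, 18.7% and 70.2% of those 18905 genes. The most frequent pattern was V. amurensis alone, with 62 members, followed by both wild genotypes without the cultivars, with 31. V. amurensis also had the most genes called lower over all genes tested, 20.4%, against 10.5%, 7.88% and 6.16% in V. riparia, Cabernet Sauvignon and Riesling. The share of all genes with each pattern was not computed, and a missing call does not show a difference between genotypes. Of the 62, the median log2 fold change was -1.86 in V. amurensis and -0.54 in V. riparia. It was -0.27 in Cabernet Sauvignon and -0.23 in Riesling. The 6 members called higher at day 9 in at least 1 genotype included 5 that were called lower in another.

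The 62 members called lower in V. amurensis alone had day 9 medians above day 0 in the other genotypes. Their median change from day 0 on that day was -0.41 in V. amurensis and 0.64 in V. riparia, and 1.30 in Cabernet Sauvignon and 1.18 in Riesling. On day 1, where the rule required a rise in each genotype, these medians were 1.30, 1.04, 1.16 and 1.01. The 31 members lower in both wild genotypes had medians of -0.75 in V. amurensis and -0.07 in V. riparia, and 0.79 in Cabernet Sauvignon and 0.87 in Riesling on day 9. The 16 members lower in all 4 had -1.23, -0.74, -0.15 and -0.48. The 30 members lower in none had 0.72, 0.02, 0.29 and 0.46 on day 9, and their medians on day 2 were already 0.81, 0.53, 0.58 and 0.68. These groups were formed from the calls, so their medians describe them and test nothing.

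The difference between wild and cultivated buds was then tested itself, in a fit of days 2 and 9 over the 4 genotypes with 20658 genes. The change from day 2 to day 9 was more negative in the wild genotypes for 46 members and more positive for 4, at an adjusted p under 0.05 in edgeR's quasi-likelihood test. Over all genes tested the change was more negative in the wild genotypes for 5.65% and more positive for 4.38%. The median interaction on the log2 scale was -0.66 over the members and -0.11 over all genes, and the 46 called members ran from -3.54 to -0.72. All 46 were among those lower at day 9 in V. amurensis, 21 were lower in both wild genotypes, and 6 were lower in a cultivar. The count of 46 was 30 without replicate 2 of V. amurensis day 2, 28 without replicate 3 of V. amurensis day 9, 30 without replicate 3 of Cabernet Sauvignon day 2, and 19 with libraries of more than 25% reads outside genes left out. The count of 4 was 7 without replicate 1 of V. amurensis day 9 or without replicate 2 of Cabernet Sauvignon day 9.

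The wild genotypes also differed from each other. In a contrast added after the data had been seen, the change was more negative in V. amurensis than in V. riparia for 26 members, against 3.37% of all genes, and more positive for 3, against 1.87%, with a median interaction of -0.50 over the members and -0.14 over all genes. The count of 26 was 17 without replicate 1 or without replicate 2 of V. amurensis day 2, 16 without replicate 2 and 17 without replicate 3 of V. amurensis day 9, 17 without replicate 1 and 15 without replicate 2 of V. riparia day 2, and 16 without replicate 1 of V. riparia day 9. It was 11 when libraries with more than 25% of reads outside genes were left out. Among the 1508 genes that rose at day 1 and ended above the limit, 86 were more negative in V. amurensis and 34 more positive. Day 9 lay nearer to the selected last day in V. amurensis than in V. riparia, so this direction too is partly set by the choice. The contrast of Cabernet Sauvignon and Riesling was also added later. The change was more negative in Cabernet Sauvignon for 0 members by edgeR and 0 by DESeq2, against 0% of all genes. It was more positive for 0 members by edgeR, against 0.00484% of all genes. At an unadjusted p under 0.05 in edgeR, 6 members (3%) were more negative and 2 more positive. Of the 20658 genes tested, 214 (1.04%) were more negative and 386 more positive at that threshold. With 3 libraries a day, the absence of adjusted calls does not show that the cultivars fell alike.

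Day 9 was not the same stage in each genotype. It was 1 day before the last collection in V. amurensis and 3, 8 and 6 days before it in V. riparia, Cabernet Sauvignon and Riesling. On the day before the last, the members' median change from day 0 was -0.38 in V. amurensis and -0.38 in V. riparia, and -1.04 in Cabernet Sauvignon and -0.70 in Riesling. At 3 days before the last it was 0.21, 0.03, -0.56 and 0.08, at 5 days before it 0.49, 0.63, -0.22 and 0.40, and at 6 days before it 0.72, 0.44, 0.17 and 0.44. The order of the genotypes thus changed with the stage. Cabernet Sauvignon's day 11 was among the days that carried the other cultivar's marker transcripts. The difference by class on day 9 cannot be told apart from progress towards budburst, from growing site or from species. Nor can it be told apart from distance to the annotation, whose Vitvi identifiers are those of V. vinifera. The rule's selection on each genotype's last day is a further such factor.

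The members were also at lower levels in the wild genotypes at day 2. In the same fit 82 were lower and 12 higher in wild than in cultivated buds, against 15.1% lower and 15% higher over all genes, with a median log2 difference of -0.52 over the members and 0.07 over all genes. The 82 ran from -3.62 to -0.44. The gap between the medians was wider on later days. The median of wild minus cultivated log2(CPM + 1) over the members was -0.26, -0.43, -0.48, -0.68 and -0.96 on days 0, 1, 2, 3 and 9, against -0.03, 0.05, 0.07, 0.04 and 0.07 over all expressed genes. Both wild means lay below both cultivar means for 75, 90, 109, 122 and 118 members on those days, against 25.7%, 22%, 22.2%, 24.7% and 22.3% of all expressed genes.

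**Figure D3:**
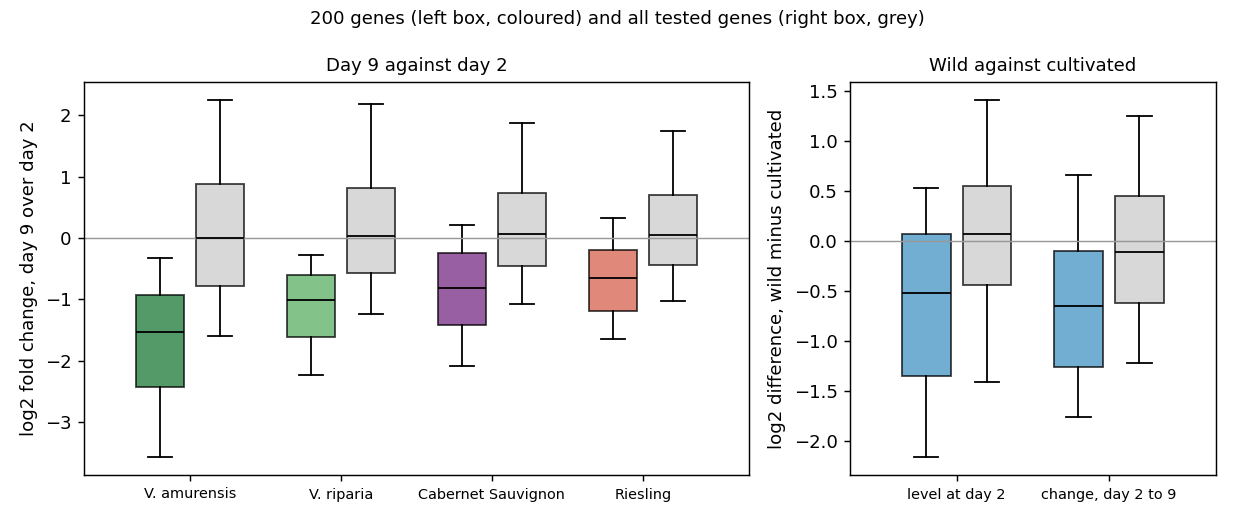
Log2 fold changes at day 9 over day 2 in each genotype (left panel) and log2 differences of wild minus cultivated buds in the level at day 2 and in the change from day 2 to day 9 (right panel). Coloured boxes are the 200 genes and grey boxes all genes tested, each with median and quartiles and whiskers at the 10th and 90th percentiles; the coloured medians, -1.54, -1.01, -0.81 and -0.66 on the left and -0.52 and -0.66 on the right, lie below the grey ones.

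Vitvi18g02724 had the largest smallest rise at day 1, and at day 1 against day 0 its level is a description. Its TMM-scaled level at day 1 was 45.8, 58.8 and 48.4 CPM in V. amurensis, against 4.44, 3.01, 5.36 and 5.04 CPM at day 0. It was 49.1, 48.4 and 129.6 CPM in Cabernet Sauvignon at day 1, against 5.29, 4.61 and 4.80 CPM at day 0. The days were far apart in every library of these genotypes. At day 9 the gene had 5.38, 13.9 and 9.51 CPM in V. amurensis, against 48.7, 26.7 and 24.4 CPM at day 2. The days did not overlap, and the log2 fold change was -1.73 ± 0.39 (SE, adjusted p = 0.000849, edgeR). In V. riparia it had 20.9, 25.9 and 27.4 CPM at day 9, against 89.99, 83.4 and 45.9 CPM at day 2, a log2 fold change of -1.67 ± 0.55 (SE, adjusted p = 0.0226, edgeR). Leaving out any 1 of these libraries other than replicate 3 of day 2 raised that adjusted p to between 0.0594 and 0.102. The course of this gene was uneven. In V. amurensis the mean was 22.9 CPM on day 4 and 64.2 CPM on day 5, against 51.0 CPM on day 1. In V. riparia it was 12.7 CPM on day 5 and 33.5 CPM on day 10.

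In the cultivars Vitvi18g02724 was still high and variable at day 9. Cabernet Sauvignon libraries had 10.9, 20.9 and 48.4 CPM at day 9, against 24.04, 26.2 and 28.3 CPM at day 2, and the log2 fold change was 0.09 ± 0.72 (SE, adjusted p = 0.965, edgeR). Riesling libraries had 81.3, 13.4 and 55.4 CPM at day 9, against 46.4, 29.4 and 26.6 CPM at day 2, and the log2 fold change was 0.57 ± 0.51 (SE, adjusted p = 0.496, edgeR). The groups overlapped in both cultivars. The change was more negative in wild than in cultivated buds by 2.05 log2 units, an interaction of -2.05 ± 0.47 (SE, adjusted p = 0.00818, edgeR). At day 2 itself wild buds had 0.73 log2 units more of this transcript, which did not pass the threshold (adjusted p = 0.0939, edgeR). It did pass with libraries under 1000000 gene counts left out (0.74 log2 units, adjusted p = 0.0403, edgeR). Over the whole course, the highest mean of this gene in Cabernet Sauvignon was 83.4 CPM on day 15, against 75.7 CPM on day 1. In Riesling the highest mean was 56.3 CPM on day 13, against 54.6 CPM on day 1.

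Vitvi01g01538, the second gene by the same ranking, had more counts than the first and lower values at day 9 than at day 2 in the 4 genotypes, which passed the test in the wild ones, in V. riparia not under every left-out library. Its level in V. amurensis was 48.5, 77.4 and 50.5 CPM at day 9, against 225.2, 129.1 and 129.9 CPM at day 2, a log2 fold change of -1.51 ± 0.35 (SE, adjusted p = 0.00099, edgeR). In V. riparia it was 183.3, 394.4 and 190 CPM at day 9, against 1011, 692.4 and 497.7 CPM at day 2, a log2 fold change of -1.62 ± 0.46 (SE, adjusted p = 0.00914, edgeR). The V. riparia call was lost without replicate 1 of day 2 (adjusted p = 0.0801, edgeR), replicate 1 of day 9 (adjusted p = 0.0509, edgeR) or replicate 3 of day 9 (adjusted p = 0.0663, edgeR). The days did not overlap in either wild genotype. In Cabernet Sauvignon it was 102.1, 318.7 and 382 CPM at day 9, against 632.5, 544.8 and 1208 CPM at day 2, with a log2 fold change of -1.59 ± 0.61 that did not pass the threshold (SE, adjusted p = 0.0614, edgeR). It did pass in Cabernet Sauvignon with DESeq2 (adjusted p = 0.042) and in edgeR with libraries of more than 25% of records outside genes left out (adjusted p = 0.0224). In Riesling it was 357.3, 290.4 and 513.1 CPM at day 9, against 1116, 629.3 and 910 CPM at day 2, with a log2 fold change of -1.18 ± 0.50 that did not pass either (SE, adjusted p = 0.109, edgeR). Every day 9 library was below every day 2 library in both cultivars. The interaction between class and day was -0.19 (adjusted p = 0.876, edgeR). At day 2 the level was lower in wild than in cultivated buds, with a log2 difference of -1.29 ± 0.31 (SE, adjusted p = 0.00319, edgeR).

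Vitvi07g01874 and Vitvi11g00261 were named because, among the members lower at day 9 in all 4 genotypes, their smallest fall was largest, so the size of their fall is a description. The day 1 rise of Vitvi07g01874, which the rule used, was larger in the cultivars than in the wild genotypes. Its log2 fold change at day 1 against day 0 was 0.90 ± 0.90 in V. amurensis and 1.65 ± 0.98 in V. riparia (SE). Neither passed the threshold (adjusted p = 0.494 and 0.275, edgeR). In Cabernet Sauvignon the fold change was 4.03 and in Riesling 4.28, and the difference between the classes was not tested. Its level was 152.4, 650 and 503.3 CPM at day 1 in Riesling, against 15.2, 27.9 and 24.6 CPM at day 0, and by day 2 it had 160.9, 86.5 and 55.4 CPM. At day 9 Riesling libraries had 1.195, 6.10 and 0.673 CPM, a log2 fold change against day 2 of -6.05 ± 1.12 (SE, adjusted p = 0.000363, edgeR). In Riesling the day 9 levels were thus below those of day 0, but 1 library of the last day was back at 25.03 CPM. In Cabernet Sauvignon it had 7.93, 7.56 and 4.95 CPM at day 9, against 71.5, 79.3 and 123.5 CPM at day 2. In V. riparia it had 3.71, 1.26 and 10.04 CPM at day 9, against 63.7, 199 and 16.8 CPM at day 2. V. amurensis had the lowest mean on both days, with 0, 0.262 and 0.444 CPM at day 9, against 5.89, 4.60 and 3.75 CPM at day 2.

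The 0 of Vitvi07g01874 came from a library of 373129 gene counts, in which 3 counts would be 8.08 CPM, above each of the day 2 values, so it does not show a lower level than day 2. The fall of this gene in V. amurensis, -3.80 ± 1.48 (SE, adjusted p = 0.0389, edgeR), did not pass the threshold when any 1 of the libraries other than replicate 1 of day 9 was left out, with adjusted p of 0.0529 to 0.136. It did not pass either with libraries of more than 25% of records outside genes left out (adjusted p = 0.135, edgeR). In V. riparia it did not pass without replicate 2 of day 2 (log2 fold change -3.05, adjusted p = 0.0782, edgeR). The level at day 2 was lower in wild than in cultivated buds, with a log2 difference of -2.18 ± 0.46 (SE, adjusted p = 0.000996, edgeR). Whether the fall differed between the classes was tested by the interaction, 0.91 (adjusted p = 0.61, edgeR), which did not pass.

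Vitvi11g00261 fell in the 4 genotypes under every alternative and left-out library tried. Its level in V. amurensis was 0, 2.75 and 0.824 CPM at day 9, against 24.2, 14.9 and 15.9 CPM at day 2, with a log2 fold change of -3.66 ± 0.84 (SE, adjusted p = 0.000942, edgeR). In V. riparia it was 1.19, 1.26 and 3.60 CPM at day 9, against 29.1, 50.3 and 15.8 CPM at day 2, with a log2 fold change of -3.99 ± 0.96 (SE, adjusted p = 0.00235, edgeR). The days did not overlap in any genotype. The 0 came from the same shallow V. amurensis library, where 3 counts would be 8.08 CPM, and the other day 9 levels in the wild genotypes were below 4 CPM. In Cabernet Sauvignon it was 13.9, 16.6 and 7.78 CPM at day 9, against 82.2, 71.3 and 136.7 CPM at day 2, with a log2 fold change of -3.01 ± 0.61 (SE, adjusted p = 0.000551, edgeR). In Riesling it was 5.98, 13.4 and 5.11 CPM at day 9, against 93.1, 54.5 and 35.1 CPM at day 2, with a log2 fold change of -3.07 ± 0.65 (SE, adjusted p = 0.00143, edgeR). At day 2 the level was lower in wild than in cultivated buds by a log2 difference of -1.67 ± 0.34 (SE, adjusted p = 0.000672, edgeR). The interaction was -0.80 (adjusted p = 0.394, edgeR) and did not pass. The day 1 rise of this gene, which the rule used, did not pass in V. amurensis or V. riparia (adjusted p = 0.153 and 0.445, edgeR). In Cabernet Sauvignon and Riesling that rise passed (adjusted p = 0.000194 and 0.000666, edgeR).

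**Figure D4:**
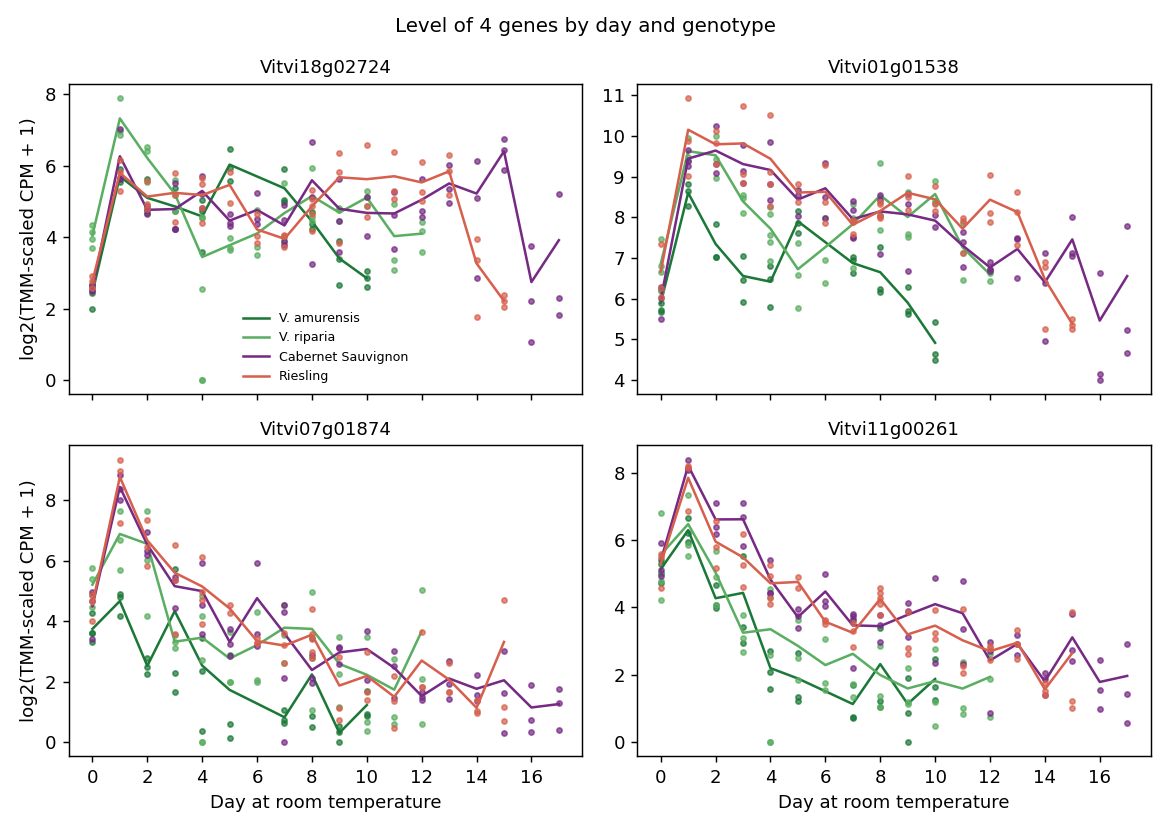
Log2(TMM-scaled CPM + 1), on the vertical axis, of the 4 named genes by day at room temperature (horizontal axis), 1 panel per gene; points are samples and lines join the day means of each genotype. Vitvi18g02724 was lower at day 9 than at day 2 in the wild genotypes, with a mean of 64.2 CPM on day 5 in V. amurensis. Vitvi07g01874 and Vitvi11g00261 were lower at day 9 than at day 2 in all 4 genotypes.

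In summed level the members were a small fraction of the transcripts. Their TMM-scaled CPM summed to 5104, 13265 and 3822 on days 0, 1 and 9 in V. amurensis. In V. riparia the sums were 6248, 14735 and 7693 on the same days. The cultivars reached higher sums at day 1, with 23502 in Cabernet Sauvignon, against 7558 at day 0, and 22301 in Riesling, against 7302 at day 0. A few transcripts carried much of this, since the 5 most abundant members held 29.2% to 31.7% of the members' sum at day 2 in the 4 genotypes. The members were spread over the identifier series, which the rule did not use. Identifiers with the leading number 18 made up 14% of the members, against 7.62% of the expressed genes, and those with 14 made up 10.5%, against 6.69%. In the order of the identifiers, 9 members stood next to another member. The number to be found among as many expressed genes was not computed, so clustering cannot be read from this.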

How the data were processed

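RNA-seq libraries of grapevine buds were deposited as tables of whole-number counts per gene, 1 for each of 189 libraries, each with 42394 genes and bookkeeping rows in HTSeq's form. Per the submitters' processing notes, the authors used cutadapt, STAR, HTSeq and DESeq2. Versions, genome build, annotation and strand setting are not given in the sources used here. Records outside genes stayed out of library sizes and tests; the median share of unassigned records was 26.5%.

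Members were found on log2(CPM + 1) of all libraries as deposited. Members, tests and alternatives were chosen with earlier results of these data known. Tests used edgeR 4.0.16 in R 4.3.3 (TMM, filterByExpr, quasi-likelihood test, Benjamini-Hochberg over all genes tested, threshold 0.05). Each genotype was fitted alone over all its days, and wild and cultivated buds in 1 fit of days 2 and 9. All 200 members passed the count filter in each of these fits. Libraries of 1 genotype and day with a biological coefficient of variation under 0.09 were summed in the tests. For the TMM-scaled levels their CPM were averaged. DESeq2 1.42.0 was an alternative test. The tests were tried on counts simulated with the same spread for every gene. For V. amurensis day 9 against day 2, 96 of 105 4-fold changes and 10 of 95 2-fold changes were recovered, with 4 false calls. For the wild against cultivated interaction, 102 of 106 and 22 of 94 were recovered, with 9 false calls. For wild against cultivated at day 2 it was 93 of 93 and 76 of 107, with 5 false calls. Most 2-fold changes from day 2 to day 9 were thus missed. The genes named were the 2 members with the largest smallest day 1 rise, and, of the members called lower at day 9 in the most genotypes and averaging 3 or more in log2 CPM, the 2 whose smallest fall was largest. No identifier was found in a RefSeq gene table of assembly ASM3070453v1, so no gene list, name or sequence could be used.

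Same-numbered replicates of days 0 and 1 deviated together in V. amurensis (correlations 0.068 to 0.265), Cabernet Sauvignon (0.143 to 0.372) and Riesling (0.125 to 0.375), which counts as pairing there. For days 2 and 9 the mean correlations were 0.19, 0.06, -0.09 and 0.01 in V. amurensis, V. riparia, Cabernet Sauvignon and Riesling. They were all positive in V. amurensis (0.020 to 0.291), so pairing is possible there. In V. riparia, Cabernet Sauvignon and Riesling they had both signs. Leaving out libraries, other scalings, filters and fits were tried as alternatives. PCR reads without molecular identifiers are not independent molecules, so floors cover counting error only.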

Additional observations from a re-analysis of the deposited data

Results flagged for a closer look

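In the genotype and day groups of 4 or 5 samples, the members' median and the 4 named genes gave 30 sets of values, of which 2 had a sample far from the others, and chance gives about 1 in 20. Vitvi11g00261 in V. riparia at day 0 had 17.5, 26.7, 30.7 and 109.7 CPM, and the gap below replicate 5 was 0.8568 of the whole range. The same gene in Cabernet Sauvignon at day 7 had 12.9, 3.57, 12.4 and 11.3 CPM. There the gap above replicate 2, which held 1 count of this gene, was 0.8345 of the range.

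Changes from day 2 to day 9 that differed between groups by the test of the interaction were more negative in wild than in cultivated buds for 46 members and more positive for 4. For Vitvi18g02724 this difference was -2.0474 on the log2 scale. The change was more negative in V. amurensis than in V. riparia for 26 members. The choice of the members by their last day partly set the more negative changes.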

How the results depend on the processing

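Of the counts recomputed under the alternatives, 429 values stayed within 1.5 times the value reported and 34 moved further. The 429 include reported counts of 0 that stayed 0, so they do not measure how stable the other counts were. Day 3 against day 2 in V. amurensis gave 2 members lower with DESeq2, and 0 to 1 without single libraries. Day 9 against day 2, fitted to those days only, gave 33 in Cabernet Sauvignon, 17 in Riesling and 9 in all 4 genotypes. Leaving out 1 library each gave 37 to 97 in V. riparia, 29 to 60 in Cabernet Sauvignon, 20 to 49 in Riesling and 9 to 20 in all 4. In V. riparia, day 1 against day 0 gave 134 with near-identical libraries kept apart and 54 to 84 without 1 library, and the last day against day 0 gave 37 to 61. At day 2, 6 members were at least 2-fold higher in wild buds. With libraries over 25% reads outside genes left out, a more negative change in wild than in cultivated buds was called for 19 members and in V. amurensis than in V. riparia for 11. Leaving out 1 library gave 28 to 60 and 15 to 38 for these, and 3 to 7 for a more positive change in wild buds. With TMM-scaled CPM in the rule, 125 of the 200 members were found, and without single replicates 151 to 187. The cause of these shifts was not tested.

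For Vitvi18g02724 in Cabernet Sauvignon, day 9 against day 2 turned to -0.0096 with the share of reads outside genes as a covariate and to -0.66 without replicate 3 of day 9, within a range of -0.66 to 0.37 without 1 library. For Vitvi01g01538 the wild against cultivated interaction turned to 0.031 and 0.027 without replicate 1 of V. amurensis or of V. riparia day 2 and to 0.036 without replicate 3 of Cabernet Sauvignon day 9, within a range of -0.39 to 0.036. None of these values passed the threshold in the fit reported.

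With the replicate number as a block, 141, 87, 58 and 39 members were lower at day 9 than at day 2 in V. amurensis, V. riparia, Cabernet Sauvignon and Riesling, 16 in all 4, and 0 at day 3 in each. Day 1 against day 0 gave 112, 84, 138 and 120, and the last day against day 0 gave 75, 54, 91 and 112. The wild against cultivated counts were 15 higher and 91 lower at day 2, and 50 and 4 for the interaction, and that of V. amurensis against V. riparia was 29. The block thus moved none of these counts by over 1.5 times.

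Day 9 libraries of 373129, 790198 and 864678 gene counts limit what low transcripts can show in V. amurensis and Riesling. With 3 samples a day, single libraries decided several counts, and changes between adjacent days were hardly detectable. Genotype, site and stage at a given day cannot be told apart, and gene identities are not known from these data.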
